A study of Mus musculus with 16 samples.

Results

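DNA methylation was compared between mature mouse oocytes that adult females ovulated after hormone injection and oocytes that females of the same age ovulated without hormones. The comparison used 7 of the 16 libraries of the series, the 4 libraries SOA1 to SOA4 (superovulation adult) and the 3 libraries IV1 to IV3 (in vivo). Its units were 10-kb bins of the autosomes on GRCm38 that held 10 or more calls in each of the 7 libraries, which gave 149750 of 246285 bins (60.8%). A call is 1 read of the methylation state of 1 CpG, and the value of a bin in a library was the percentage of methylated calls among all its calls. Bins that qualified held a median of 94 reference CpGs and those that did not held 46, so CpG-poor stretches were under-represented.

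All donors were F1 females bred from C57BL/6J and CBA/Ca mice and 10 weeks old. SOA females were injected with eCG and then hCG, and IV females received no hormone, their oestrus having been synchronised by exposure to male scent. Each library was made by post-bisulphite adapter tagging (PBAT) from 1 pool of metaphase II (MII) oocytes of several females, so the spread between libraries is a spread between pools, and a value cannot be traced to a single oocyte or female. The remaining libraries, 4 from in vitro follicle culture (IFC) and 5 from superovulated prepubertal females (SO), both labelled as 23 days old, served here to sort bins into classes and as a reference.

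Equine chorionic gonadotrophin (eCG) acts on the ovary like follicle-stimulating hormone and makes follicles grow, and human chorionic gonadotrophin (hCG) acts like the luteinising hormone surge that starts the final maturation of the oocyte and ovulation. Oocytes gain DNA methylation while they grow, through DNMT3A with its cofactor DNMT3L, and chiefly across the bodies of transcribed genes. The result is a genome of highly methylated and nearly unmethylated domains, with most CpG islands unmethylated and the maternal imprint regions methylated. By the time of the hCG-like signal the oocyte is fully grown and transcriptionally silent.

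The sequences of 3 CpG-dense regions (50 or more CpGs that lie on average no more than 20 bp apart) are shown because they carry the patterns described here: the called region with the largest loss in SOA, a region at the Bcan promoter that was picked by the study from these libraries, and a maternal imprint region as a reference. For each region the 300 bases outside annotated exons with most calls in the 7 libraries are printed from the GRCm38 plus strand, with each CpG in capitals.
Arhgef26 neighbour, intergenic, chr3:62158952-62159251: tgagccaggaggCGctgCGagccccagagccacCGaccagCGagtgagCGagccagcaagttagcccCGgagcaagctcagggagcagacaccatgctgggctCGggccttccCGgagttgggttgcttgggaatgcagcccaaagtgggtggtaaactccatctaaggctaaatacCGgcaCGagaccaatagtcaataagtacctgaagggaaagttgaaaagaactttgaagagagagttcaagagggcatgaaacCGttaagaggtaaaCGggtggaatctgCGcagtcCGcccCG
Bcan, upstream of its start, chr3:88000262-88000561: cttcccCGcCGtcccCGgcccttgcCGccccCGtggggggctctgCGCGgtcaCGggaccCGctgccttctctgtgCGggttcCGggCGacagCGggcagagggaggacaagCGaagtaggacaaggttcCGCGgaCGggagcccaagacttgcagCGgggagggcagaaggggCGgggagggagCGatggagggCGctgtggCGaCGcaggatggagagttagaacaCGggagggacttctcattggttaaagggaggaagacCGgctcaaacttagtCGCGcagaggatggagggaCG
Nnat, inside an intron of the host gene Blcap, chr2:157559320-157559619: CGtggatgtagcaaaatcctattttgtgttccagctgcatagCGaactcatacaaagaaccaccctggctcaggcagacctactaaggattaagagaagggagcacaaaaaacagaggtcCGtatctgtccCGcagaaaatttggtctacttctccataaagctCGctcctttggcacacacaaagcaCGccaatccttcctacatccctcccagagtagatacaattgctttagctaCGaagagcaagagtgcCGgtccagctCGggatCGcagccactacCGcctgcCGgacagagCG
The intergenic stretch has 15 CpGs and was methylated in 2 of 26 calls in SOA1, 2 of 16 in SOA2, 0 of 19 in SOA3, 25 of 75 in SOA4, 19 of 51 in IV1, 39 of 62 in IV2 and 21 of 55 in IV3. SOA1 to SOA3 were nearly free of methylation there, while SOA4, at 33.3%, lay near the 37.3% of IV1 and the 38.2% of IV3. In the Bcan stretch, with 28 CpGs, 4 of 5 calls were methylated in SOA1 and 8 of 16 in SOA2, against 0 of 19 in SOA4, 0 of 23 in IV1, 2 of 64 in IV2 and 0 of 5 in IV3, and SOA3 had no call. The Nnat stretch, with 13 CpGs, was methylated in 41 of 41 calls of the SOA libraries together and in 35 of 37 calls of the IV libraries. At these depths a single window gives few calls per library, so the comparisons that follow use whole regions, bins or gene bodies. Regions and bins can be shallow too. The CpG-dense region around the intergenic stretch had 26, 25 and 20 calls in SOA1 to SOA3 and 101 in SOA4.

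Depth was not balanced between the groups. SOA1 to SOA3 held 5218053 to 6165152 calls, SOA4 held 23065411, and the IV libraries held 15644144 to 17275310. The median number of calls per bin was 24 to 29 in SOA1 to SOA3, 109 in SOA4 and 74 to 81 in the IV libraries. IV1 stood apart from the other libraries. Only 33.6% of its bins were below 20% methylation, against 42.2% to 45.5% of the bins in the other 6, and the main results are therefore given with and without IV1. The paper suspected a slight contamination of IV1 by DNA of somatic cells but kept the library. What set IV1 apart was not tested here.

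The oocyte identity of the libraries was checked at imprinted regions. Maternal imprint regions, which oocytes methylate, averaged 95.83% to 97.39% in the SOA libraries, 89.55% in IV1 and 94.64% and 96.38% in the other IV libraries. The paternally methylated control region 2 to 4 kb upstream of H19, which sperm but not oocytes methylate, (chr7:142580143-142582143) was at 0% of 25 calls, 3.6% of 28, 0% of 5 and 1.1% of 90 in SOA1 to SOA4, and at 3.9% of 77 and 2.7% of 37 in IV2 and IV3. In IV1 it was methylated in 1 of 53 calls, 1.9% with a 95% Wilson interval of 0.3% to 9.9%, and the counts of 0 in SOA1 and SOA3 have upper Wilson bounds of 13.3% and 43.4% (counting error only). At the paternal region 10 to 15 kb upstream of Meg3, IV1 had 7.4% of 94 calls methylated, between the 0% of IV3 and the 10.4% of IV2, and the SOA libraries were at 12.1% of 33, 8.8% of 34, 0% of 16 and 2.7% of 149 calls. Cumulus cells, which surround the ovulated oocyte, carry close to even methylation at both kinds of region.

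Average methylation differed between superovulated and naturally ovulated oocytes by less than the spread between pools. The mean over all bins was 43.07%, 42.26%, 41.65% and 40.43% in SOA1 to SOA4, and 45.12%, 41.31% and 41.10% in IV1 to IV3. The groups overlapped, since SOA1 to SOA3 lay above IV2 and IV3, while SOA4 was below every IV library and IV1 above every SOA library. The SOA mean was 41.85 ± 1.11% (SD, n = 4) and the IV mean 42.51 ± 2.26% (SD, n = 3), a difference of -0.65 points with an exact two-sided permutation p = 0.714. Without IV1 the difference was 0.65 points (exact permutation p = 0.533), so its direction rested on that library. With 4 against 3 libraries the smallest p this test can give is 0.0286, and with 4 against 2 it is 0.0667, which cannot pass 0.05.

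Bins were then sorted by the pooled calls of the 9 IFC and SO libraries, which take no part in the comparison. The low class, below 20%, held 65152 bins, the intermediate class 45669 and the high class, above 80%, 38929. Low bins are the unmethylated domains of the oocyte. They averaged 8.80%, 8.21%, 7.39% and 6.82% in SOA1 to SOA4, and 15.90% in IV1 against 8.40% and 7.60% in IV2 and IV3. The SOA minus IV difference there was -2.83 points (exact permutation p = 0.2), and -0.20 points without IV1 (exact permutation p = 0.733).

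High bins, the methylated domains, averaged 92.79%, 92.17%, 92.74% and 91.28% in SOA1 to SOA4, and 88.93%, 91.20% and 91.63% in IV1 to IV3. The difference was 1.66 points (exact permutation p = 0.0857), and 0.83 points without IV1 (exact permutation p = 0.2). When calls off the CpGs of the reference were removed, the difference with IV1 was 1.46 points and the exact permutation p was 0.0286, the smallest possible. Intermediate bins averaged 49.57%, 48.30%, 46.99% and 45.05% in SOA1 to SOA4 and 49.45%, 45.73% and 45.80% in IV1 to IV3, a difference of 0.48 points (exact permutation p = 0.743) and 1.71 points without IV1 (exact permutation p = 0.333). IV1 was the highest library in low bins and the lowest in high bins. IV2 and IV3 lay inside the SOA range in low and intermediate bins, and in high bins IV2, at 91.20%, lay just below the 91.28% of SOA4.

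**Figure D1:**
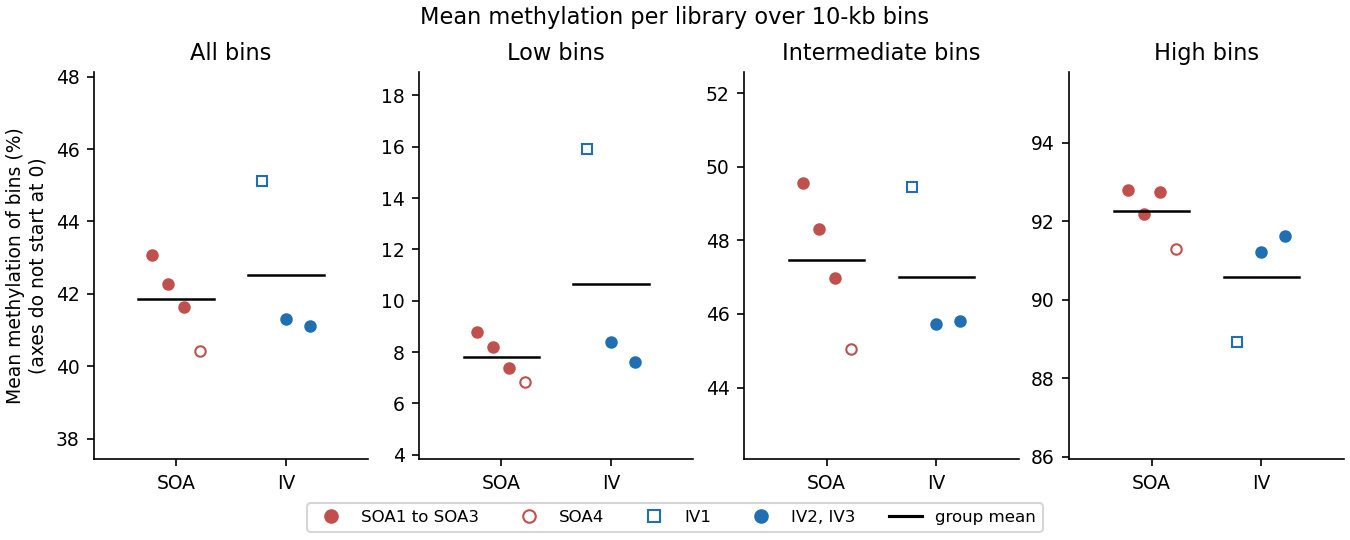
Mean methylation (%) of each library over all 149750 bins and over the low, intermediate and high bins; each marker is 1 library, black lines are group means and the axes do not start at 0. IV1 (open square) is the highest library in low bins at 15.90% and the lowest in high bins at 88.93%, while the markers of the other libraries overlap or lie close together.

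Parts of the genome gave the same picture. Bins that overlapped a protein-coding gene averaged 51.51% to 54.29% in the SOA libraries and 52.06% to 54.36% in the IV libraries, and bins outside genes 25.75% to 28.19% and 26.57% to 32.86% (difference of -1.90 points, exact permutation p = 0.429, and 0.13 points without IV1). Promoters, the 1000 bp upstream of annotated starts, had 23.02% to 28.86% of their calls methylated in the SOA libraries and 22.97% to 25.54% in the IV libraries. The difference was 2.35 points (exact permutation p = 0.171) and 3.13 points without IV1 (exact permutation p = 0.267), and SOA4, the only deep SOA library, was at 23.02%.

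Distances were also taken between pairs of libraries. After all 7 libraries were thinned to equal depth, the mean absolute difference over 126813 bins was 8.11 to 8.70 points between 2 SOA libraries. Between an SOA library and IV2 or IV3 it was 7.51 to 8.49 points, and between IV2 and IV3 it was 7.84. Superovulated pools thus lay about as far from IV2 and IV3 as from each other. IV1 was 9.99 and 10.2 points from the other IV libraries and 10.2 to 10.9 from the SOA libraries. The pairs share libraries, so these distances carry no test.

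Bin by bin, 91.5% of bins differed by less than 10 points between the group means, and 90.9% without IV1. The logistic likelihood-ratio test, which treats each call as independent, called 11227 bins (7.50%) at a Benjamini-Hochberg adjusted p under 0.05, of which 8959 were lower in SOA. Without IV1 it called 2022 bins (1.35%), of which 834 were lower and 1188 higher in SOA, so the balance of directions changed with that library. Called both ways were 1589 bins, and 1586 of them kept their direction. Of the 8959 bins lower in SOA, 7531 (84.1%) were low bins, the class in which IV1 was high.

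A further limit of 20 points left 227 bins lower in SOA (0.152%) and 308 higher (0.206%). Without IV1 it left 144 lower (0.0962%) and 377 higher (0.252%). Without SOA4 832 bins were higher, and without IV2 and IV3 535 and 569 were lower. Called with 20 points both ways were 74 bins lower and 194 higher in SOA. The 7 libraries did not overlap between groups in 55 of these lower (0.0367%) and 125 of these higher bins (0.0835%). Among all bins, groups did not overlap in 6029 lower (4.03%) and 3782 higher (2.53%), and without IV1 in 7988 lower (5.33%) and 8771 higher (5.86%).

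Tests that take the spread between libraries into account called almost none of these bins. edgeR's quasi-likelihood test and limma each called 0 of 149750 bins after Benjamini-Hochberg adjustment, and the quasi-binomial F test called 1. At an unadjusted p under 0.05 these tests passed 8425, 4966 and 8544 bins. Without IV1, edgeR and limma again called 0 bins (5322 and 5298 at an unadjusted p under 0.05) and the quasi-binomial test called 26, none of them with a difference of 20 points. With so few libraries these tests have little power for single bins, and a count of 0 does not show that no bin changed. The variance of calls between libraries of 1 group was a median of 1.68 times what independent calls would give, which the logistic test does not allow for.

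**Figure D2:**
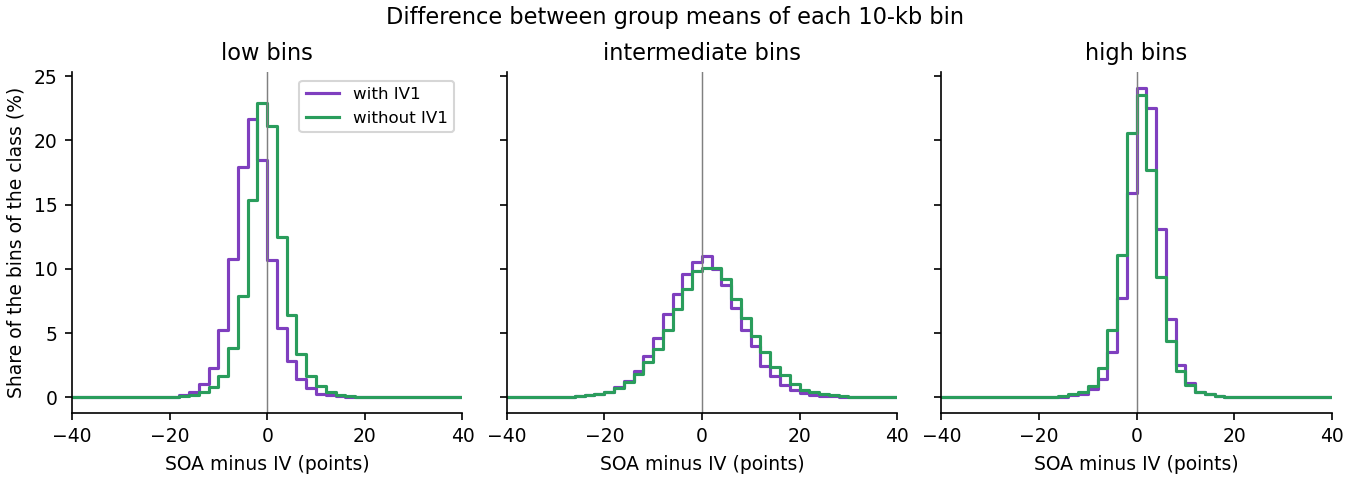
Distribution of the SOA minus IV difference (percentage points, in steps of 2) over low, intermediate and high bins, as the share of bins of the class, with IV1 (purple) and without it (green). In low bins the curve with IV1 is shifted to negative values and the curve without it is centred near 0; in intermediate bins both are centred near 0 and broader.

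**Figure D3:**
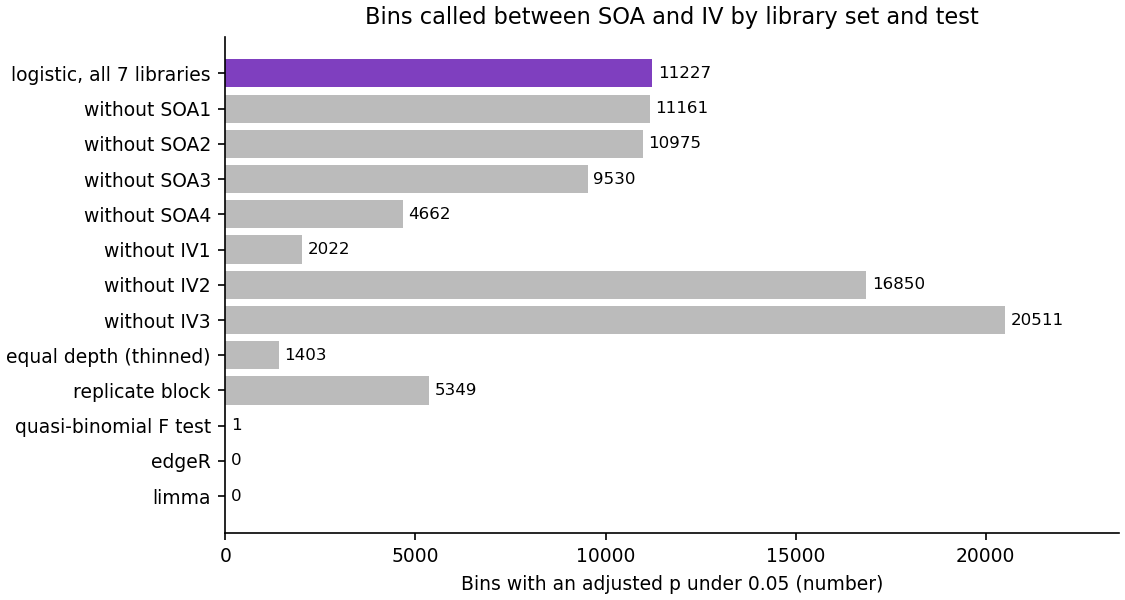
Number of bins called at an adjusted p under 0.05, for the logistic test with all 7 libraries (purple, 11227 bins) and for other library sets and tests (grey). The logistic count ranges from 2022 without IV1 to 20511 without IV3, and with all 7 libraries the tests that use the spread between libraries call 0 or 1 bin.

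The bins called with 20 points both ways were set beside the annotation. Of the 194 higher bins, 112 (57.7%) overlapped a promoter window and 109 (56.2%) a CpG-dense region, against 21.3% and 9.54% of all bins. For the 74 lower bins the shares were 14.9% and 12.2%, and 51 of them (68.9%) lay outside genes, against 43% of all bins. Intermediate bins made up 95.4% of the higher and 85.1% of the lower set, against 30.5% of all bins. The fifth of bins with most CpGs held 54.6% of the higher and 17.6% of the lower set, against 19.6% of all bins. The part of CpG count in the promoter and CpG-dense shares was not tested. A limit of 20 points can hardly be passed near 0% or 100%, so the class makeup follows in part from the limit, and these shares are given as a description.

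The level of the higher set was also read in each library of the series. Over 193 of its bins with at least 5 calls in every library of the series, SOA1 to SOA3 averaged 66.1%, 65.8% and 68.9%, SOA4 51.2%, and IV1 to IV3 42.3%, 36.8% and 35.2%. The SO libraries averaged 46.3% to 50.6% and the IFC libraries 45.1% to 50.4%, both between the IV libraries and SOA4. Within SO, the deep SO3 to SO5 averaged 46.3% to 48.7% and the shallow SO1 and SO2 were above them at 49.7% and 50.6%. The IFC libraries were all shallow, at 5311009 to 8231898 calls. Over 69 lower bins the SOA libraries averaged 24.7% to 34.0%, the IV libraries 52.3% to 56.0%, and the SO and IFC libraries 38.9% to 43.7%. The bins were chosen on the SOA and IV values, so those 2 groups are extreme by construction, and the part of depth in the gap between SOA4 and SOA1 to SOA3 was not tested.

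The bins with the largest loss in SOA held a stretch of a long adhesion gene and several intergenic stretches. At chr8:119050001-119060000, inside Cdh13, which encodes T-cadherin, methylation was 9.1%, 17.1%, 8.3% and 22.4% in SOA1 to SOA4 and 31.3%, 48.8% and 41.5% in IV1 to IV3. All SOA libraries were below all IV libraries, by 26.3 points on average and 30.9 without IV1, while SO and IFC pools were at 36.9% and 29.1%. The logistic test gave an adjusted p of 2.08e-07, and edgeR an adjusted p of 0.883.

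A bin at chr2:69340001-69350000, which overlaps a promoter window of Abcb11, the bile salt export pump, was at 5.0% to 23.6% in SOA and 33.7% to 49.2% in IV. The intergenic bin chr3:62150001-62160000, 178344 bp from Arhgef26, contains the first sequence printed above. It was at 25.6%, 44.1%, 15.9% and 44.6% in SOA1 to SOA4 and 55.2%, 61.8% and 57.0% in IV1 to IV3. Within it the CpG-dense region chr3:62158394-62159544 was at 7.7%, 40%, 0% and 46.5% in SOA and 52.8%, 72.5% and 54.9% in IV, a difference of -36.5 points. The other 3 bins of the rule lay 26143 bp from Pdk1, inside Elmo1 and 11263 bp from Appl2, with differences of -25.4, -24.9 and -23.5 points (-20.9, -31.3 and -20.8 without IV1).

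The bins with the largest gain in SOA all overlapped a promoter window and a CpG-dense region. At Rab8b, a small GTPase of vesicle transport, the bin chr9:66910001-66920000 was at 88.9%, 84.4%, 96.8% and 57.6% in SOA1 to SOA4 and 57.0%, 32.4% and 47.9% in IV1 to IV3. SOA1 to SOA3 were far above IV, while SOA4, at 57.6%, was level with IV1. The calls numbered 27, 32 and 31 in SOA1 to SOA3 and 172 in SOA4. The bin at Colgalt1 and Unc13a (chr8:71620001-71630000), a collagen galactosyltransferase and a synaptic vesicle priming factor, was at 66.7%, 50.6%, 95.5% and 54.0% in SOA and 29.9%, 27.8% and 42.1% in IV. At Xrcc2, a DNA repair gene, the bin chr5:25700001-25710000 was at 66.7%, 90%, 73.9% and 52.2% in SOA and 37.1%, 34.4% and 47.0% in IV. The 95.5% of SOA3 at Colgalt1 and Unc13a came from 22 calls, and the 90% of SOA2 at Xrcc2 from 20.

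Bins at Abhd3, at Fgd6 and Nr2c1, and at Glt8d1, Gnl3 and Pbrm1 differed by 32.3, 32.2 and 31.4 points (33.5, 27.4 and 26.4 without IV1). In 5 of these 6 bins SOA4 was the lowest SOA library, as it was not in the bin at Colgalt1 and Unc13a. Adjusted p-values of the logistic test over the 6 bins ran from 1.03e-08 to 9.89e-05, and edgeR gave each an adjusted p of 0.883. Of 149750 bins tested, 16 lower and 72 higher met the criteria for naming, and the 6 with the largest difference in each direction were named. Groups alone were apart in 4.03% of all bins lower and 2.53% higher.

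No gene body, where oocyte methylation mostly lies, passed the test. Of 20783 genes, 14845 had 20 or more calls in every library. edgeR's quasi-likelihood test called 0 of them (0%), with a smallest adjusted p of 0.82, and limma also called 0. Both tests missed most of the changed gene bodies in simulated data with the coverage and mean levels of these libraries and changes of 20 points. The spread between simulated libraries was assumed rather than measured, so the share missed may differ in these data. A count of 0 does not show that no gene body changed. At an unadjusted p under 0.05 edgeR passed 890 gene bodies (6.00%), limma 718, and without IV1 edgeR passed 512 (3.45%). Groups did not overlap in 307 gene bodies lower (2.07%) and 685 higher (4.61%) in SOA. The mean over all tested gene bodies was 48.91% to 53.72% in the SOA libraries and 49.27% to 51.76% in the IV libraries (difference of 1.53 points, exact permutation p = 0.286, and 2.31 points without IV1). SOA4 alone differed from the IV mean by -1.30 points, the opposite direction. Of all tested genes 91.7% differed by less than 10 points, and 89.9% without IV1.

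The same edgeR test did call gene bodies between other groups. Over 14442 genes with 20 or more calls in all 12 SO, SOA and IV libraries, it called 106 (0.734%) between SO and IV, 141 (0.976%) between SO and IV without IV1, and 176 (1.22%) between SO and SOA. Between SOA and IV it called 0, with 872 at an unadjusted p under 0.05, and 0 without IV1, with 502. SO also has 5 libraries where SOA has 4, the comparisons share libraries, and the difference between them was not tested.

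The 8 gene bodies with the largest losses in SOA were taken from those with groups apart and at least 50 calls in every library. Mak16, a factor of large ribosomal subunit assembly, was at 41.1%, 45.3%, 32.8% and 51.0% in SOA1 to SOA4 and 68.8%, 63.6% and 54.9% in IV1 to IV3. Tfrc, the transferrin receptor that takes up iron, was at 48.2%, 45.5%, 56.0% and 56.7% in SOA and 63.5%, 78.4% and 71.7% in IV. For Ndufa10, a subunit of respiratory complex I, the SOA libraries were at 66.4% to 76.7% and the IV libraries at 77.3% to 86.4%. In all 3 genes every IV library was above every SOA library, as the rule required.

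Polr2f, a subunit shared by the nuclear RNA polymerases, Tigar, a fructose bisphosphatase that lowers glycolysis, Gm27029, Wdr86 and Nif3l1 completed the set, with differences of -13.6 to -11.4 points. With 1 library left out, the difference shrank to as little as -7.6 points at Gm27029, -7.8 at Nif3l1 and -8.5 at Wdr86. edgeR's unadjusted p over these 8 genes was 0.0173 to 0.0928, and the adjusted p was 0.82 for each.

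Of 14845 tested gene bodies, 10 lower and 157 higher in SOA met criteria of the same kind. Groups alone, without the limits on calls and difference, were apart in 2.07% lower and 4.61% higher. The 8 largest gains were of 21.2 to 25.9 points (18.5 to 25.7 without IV1). Tgfbr1, the type I receptor of TGF-beta, was at 93.3%, 90.3%, 81.9% and 67.2% in SOA1 to SOA4 and 61.4%, 63.1% and 52.1% in IV1 to IV3. Bud13, a splicing factor, was at 96.9%, 88.5%, 100% and 87.9% in SOA and 79.3%, 65.1% and 70.2% in IV. Plekha3, a Golgi protein that binds phosphatidylinositol 4-phosphate, was at 91.1%, 85.8%, 89.5% and 75.2% in SOA and 57.0%, 57.6% and 71.4% in IV, with an adjusted edgeR p of 0.82, which was the value for all 8 genes. SOA4 was the lowest of the SOA libraries in these 3 genes.

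Cog8, of the Golgi tethering complex COG, Tmem59, Mtdh, Ankrd13c and Kxd1, of a complex that positions lysosomes, made up the rest, with differences of 25.9, 25.1, 24.2, 22.0 and 21.2 points. In 7 of the 8 genes SOA4 was the lowest SOA library, and in Kxd1 it was 40.1% against 38.2% in SOA3. Kxd1 was at 79.4% in SOA1, and without that library its difference was 12.3 points.

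**Figure D4:**
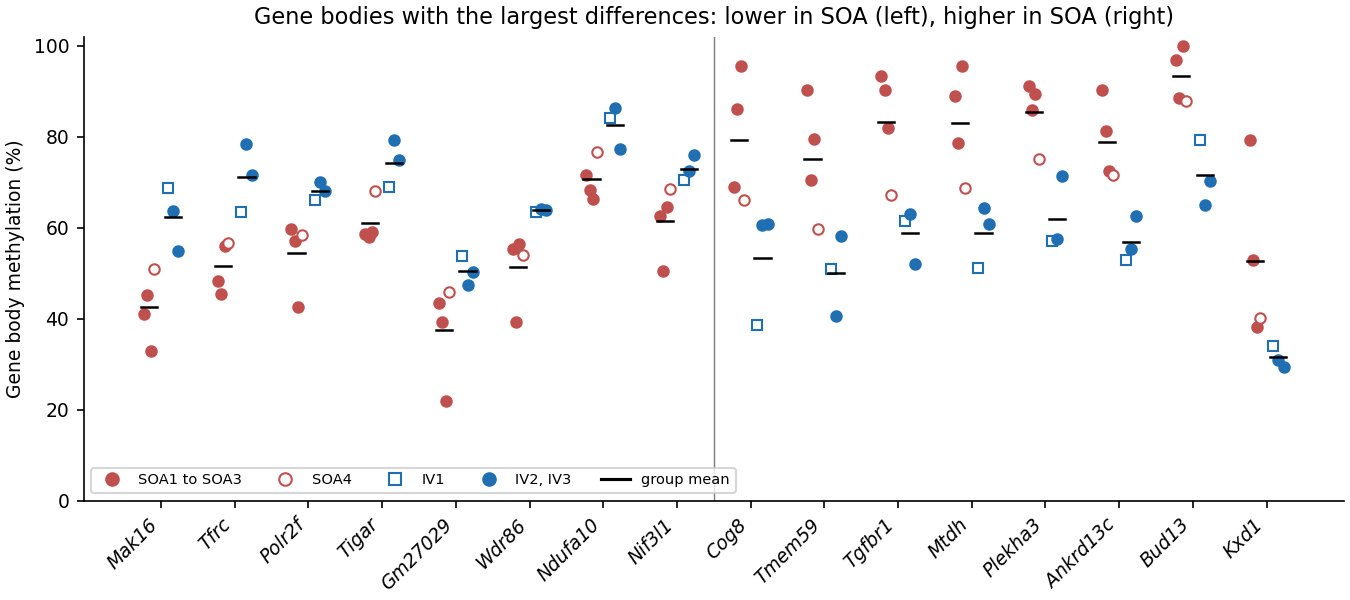
Gene body methylation (%) in each library for the 8 genes with the largest difference in each direction among genes whose groups did not overlap; markers are libraries and black lines group means. The genes were chosen on these values, and none passed the adjusted test; SOA4 (open circle) lies nearest to the IV libraries in most of them.

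No tested gene of the hormone response and of ovulation was called. Of 27 tested genes of gonadotropin, steroid and ovulation signalling, 0 were called by edgeR after adjustment, 1 had an unadjusted p under 0.05 (0 without IV1) beside 6.00% of all gene bodies (3.45% without IV1), and the median difference was -0.33 points against 1.02 over all gene bodies (1.62 against 1.54 without IV1). Their bodies were mostly poorly methylated in oocytes, with a median of 23.5% in SOA. Areg, an EGF-like growth factor that relays the ovulatory signal, was at 1.7% to 4.7% in SOA and 6.0% to 8.8% in IV. Nr5a2, a nuclear receptor needed for ovulation, was at 85.4% to 87.3% in SOA and 79.1% to 83.9% in IV. They were named because Areg was the 1 gene of the list with groups apart and lower in SOA, and Nr5a2 the 1 higher. Over all gene bodies these shares were 2.07% and 4.61%. The widest differences of the list were -5.2 points at Amhr2, the receptor of anti-Müllerian hormone, and 11 points at Nr3c1, the glucocorticoid receptor. Nr3c1 was at 89.5% in SOA3 against 63.5% to 76.7% in the other SOA libraries and differed by 6.2 points without it. Amhr2 rested on IV1, at 13.2% against 2% and 6% in IV2 and IV3, and without IV1 it differed by -2.1 points and the lowest of the list was Areg at -3.2.

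Enzymes of DNA methylation and linked histone marks are of interest because they set the oocyte pattern. Among 28 tested genes 0 were called after adjustment by edgeR and 2 had an unadjusted p under 0.05 with and without IV1, Setd2 and Ehmt1, beside 6.00% of all gene bodies with IV1 and 3.45% without. Setd2, which writes the H3K36me3 mark that guides gene body methylation, was at 89.1%, 88.0%, 84.9% and 80.2% in SOA1 to SOA4 and 71.2%, 76.8% and 76.0% in IV1 to IV3, with an adjusted edgeR p of 0.82. Ehmt1, a histone H3K9 methyltransferase, was at 83.7% to 93.1% in SOA and 77.0% to 82.1% in IV. Dnmt3l, the cofactor of de novo methylation, was at 77.2% to 88.5% and 70.1% to 76.2%. These were the 3 of 28 genes with groups apart and higher in SOA, beside 4.61% of all gene bodies, and were named for that. The list's median difference was 1.56 points against 1.02 over all gene bodies, and 1.63 against 1.54 without IV1. At the other end Ezh2, the Polycomb methyltransferase, differed by -7.5 points with groups that overlapped, and by -4.3 without IV1, where Mbd4, a DNA glycosylase, was lowest at -9.1.

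Oocyte-specific and maternal effect genes numbered 26 tested, with 0 called after adjustment by edgeR, 1 at an unadjusted p under 0.05, and a median difference of 2.17 points (1.59 without IV1), beside 6.00% and 1.02 points (1.54 without IV1) over all gene bodies. Kit, the receptor through which granulosa cells drive oocyte growth, was at 85.4% to 89.3% in SOA and 81.4% to 84.6% in IV. Zp1, a zona pellucida protein, was at 70.4% to 84.2% and 65.7% to 68.1%, with as few as 27 calls in a library. Kit and Zp1 were the 2 of 26 genes with groups apart and higher in SOA, beside 4.61% of all gene bodies, and were named for that. The list's extremes were Dazl, an RNA-binding protein of germ cells, at -7.2 points, and Npm2, a nucleoplasmin of the egg, at 11.1 points. Npm2 was at 30.8%, 81.4%, 60.7% and 52% in SOA1 to SOA4, and its difference was 2.7 points without SOA2 and 19.6 without SOA1. Dazl rested on IV1, at 39.0% against 12.5% and 16.7% in the other IV libraries, and without IV1 the difference was 0.9 points and the lowest of the list was Cnot7, of the deadenylase complex, at -12 points.

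Of meiosis and spindle genes (25 tested) and DNA repair genes (49 tested), 0 were called after adjustment. Their median differences were 0.60 and 1.45 points (2.52 and 1.56 without IV1) against 1.02 (1.54 without IV1) over all gene bodies. At an unadjusted edgeR p under 0.05 were 1 meiosis gene, Aurkb, and 0 repair genes, and 0 of both without IV1. Over all gene bodies the share was 6.00%, and 3.45% without IV1. Aurkb, a kinase of the chromosomal passenger complex, was at 73.4%, 77.5%, 81.0% and 58.3% in SOA1 to SOA4 and 47.6%, 38.2% and 63.6% in IV1 to IV3, with as few as 21 calls in a library. Rec8, the meiotic cohesin, differed by -10.2 points. Among repair genes Ung, uracil-DNA glycosylase, was at 52.8% to 75.0% in SOA and 42.9% to 52.2% in IV, and Brca2, of homologous recombination, at 76.3% to 94.8% and 87.3% to 93.4%, a difference of -6.9 points that was -4.4 without SOA3 and -10.5 without SOA2. Blm, a RecQ helicase, and Xrcc2 also had groups apart, both higher in SOA, which with Ung made 3 of 49 against 4.61% of all gene bodies.

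Of 19 tested genes that mark granulosa and cumulus cells, 0 were called after adjustment by edgeR. Their median difference was 0.50 points (1.89 without IV1), and 2 had an unadjusted p under 0.05 (0 without IV1). Over all gene bodies the median was 1.02 points and the share 6.00% (3.45% without IV1). Runx1, a transcription factor of granulosa cells, had an unadjusted edgeR p of 0.0461 that rested on IV1, at 12.7% against 5.8% and 6.1% in IV2 and IV3 and 4.4% to 6.3% in SOA. Wnt4, a signal of ovarian differentiation, differed by 9.2 points, from 24.8 ± 2.3% in IV (SD, n = 3) to 34.0 ± 6.6% in SOA (SD, n = 4). Its groups overlapped, with 40.8%, 29.7%, 38.5% and 27.2% in SOA1 to SOA4 and 27.2%, 24.7% and 22.6% in IV1 to IV3. Gata4, a transcription factor of gonadal somatic cells, was at 48.1% to 54.1% in SOA and 44% to 44.6% in IV, and Amhr2 and Nr5a2 stand in this list as in that of ovulation. Gata4 and Nr5a2 were the 2 of 19 genes with groups apart and higher in SOA, beside 4.61% of all gene bodies.

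The genes that the study named for this comparison were picked from these same libraries, so their values describe the choice and are no independent evidence. Of 11 tested gene bodies 0 were called by edgeR after adjustment, and 3 had an unadjusted p under 0.05, Ncor1, Tcf4 and Nkpd1, beside 6.00% of all gene bodies. Without IV1 these were 2, Tcf4 and Nkpd1, beside 3.45% of all gene bodies. Tcf4, a basic helix-loop-helix transcription factor, was at 50.9%, 57.2%, 60% and 50% in SOA1 to SOA4 and 46.7%, 42.0% and 46.8% in IV1 to IV3, with at least 1146 calls in each and an adjusted edgeR p of 0.82. Its body averaged 77.7% in SO and 82.9% in IFC, above both adult groups. Ncor1, a nuclear receptor corepressor, was at 90.3% to 95.3% in SOA and 85.2% to 90.7% in IV.

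The long gene bodies of Sdk1, a cell adhesion protein, and Cdh13 differed by 0.6 and 0.4 points, so the Cdh13 bin described above had no counterpart over the whole gene. The study reports windows with less methylation in SOA at Sdk1 and with more at Cdh13. The Cdh13 bin, lower in SOA, thus ran the other way from the study's windows, and their positions were not compared. Adgrl2, the latrophilin 2 receptor, differed by 3.9 points with overlapping groups, and by 2.4 to 5.2 points with 1 library left out. Among 12 genes named by the study for its other comparisons 0 were called after adjustment by edgeR, and their differences ran from -1.5 points at Etl4 to 9.4 at Tcf4. Without IV1 they ran from -0.3 at Etl4 to 12.9 at Soga1, which differed by 8.6 points with IV1.

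CpG-dense regions, which often lie at promoters, were tested like bins. Of 14776 regions, 2935 had 20 or more calls in every library, of which 2713 were low, 165 intermediate and 57 high in IFC and SO. With IV1 198 regions (6.75%) were called, 107 lower and 91 higher in SOA, and without IV1 147 (5.01%), 60 lower and 87 higher. Called both ways were 100 regions, and 1 of them was lower and 7 higher by 20 points both ways. The quasi-binomial F test, added after seeing the data, called 0 regions with IV1 and 1 without. Low CpG-dense regions averaged 4.15% to 4.35% in the SOA libraries and 4.00% to 4.91% in the IV libraries. Intermediate ones averaged 36.48% to 42.69% in SOA and 34.79% to 36.47% in IV, a difference of 3.27 points with an exact permutation p = 0.0571 and of 3.11 points without IV1 (exact permutation p = 0.2), and SOA4, at 36.48%, was level with the highest IV library at 36.47%.

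Of the 7 CpG-dense regions at genes picked by the study that were intermediate in IFC and SO and had 20 or more calls in every library, SOA4 lay below SOA1 to SOA3 in 5, and not at Ncor1 and Golim4. At Nkpd1, an NTPase, the region chr7:19522383-19524835 was at 68.6%, 64.4%, 80% and 28.9% in SOA1 to SOA4 and 29.1%, 33.9% and 26.3% in IV1 to IV3. SOA4, with 201 calls, was inside the IV range, and SO and IFC pools were at 61.3% and 78.3%. At Golim4, a Golgi membrane protein, the region chr3:75955606-75957311 was at 82.1%, 71.7%, 51.6% and 55.5% in SOA and 46.0%, 31.1% and 25.5% in IV. Here all SOA libraries were above all IV libraries, SOA4 included, and SO and IFC pools were at 59.1% and 55.0%.

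The Bcan region chr3:87999044-88001173, at the start of the gene of the brain proteoglycan brevican, was at 30.4%, 40.4%, 72.3% and 26.1% in SOA and 25.0%, 9.0% and 22.5% in IV, and the stretch printed above lies within it. At Ncor1 the region chr11:62456322-62459040 was at 74.2%, 83.6%, 92.3% and 74.3% in SOA and 55.8%, 67.3% and 60.8% in IV, with groups apart. The region chr9:106885070-106888131 overlaps Manf, a neurotrophic factor of the endoplasmic reticulum, and Rbm15b. It was at 42.8% to 73.0% in SOA and 29.5% to 44.9% in IV. The region at the annotated start of Manf, chr9:106891075-106892774, was at 0% to 18.2% in SOA and 0% to 6.6% in IV, with as few as 11 calls in a library. The region at Krt7, a keratin, was at 76.9% to 100% in SOA and 58.7% to 84.9% in IV. Logistic adjusted p-values with IV1 were 9.55e-06 at Nkpd1, 1.09e-07 at Golim4, 6.11e-07 at Bcan, 1.00e-04 at Ncor1, 0.00116 at Manf and 0.024 at Krt7, and Krt7 was not called without IV1 (adjusted p of 0.292).

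Regions outside the study's list that passed 20 points both ways were chosen after their values were seen. At Junb, an AP-1 transcription factor, the region chr8:84975674-84979404 was at 66.7%, 41.7%, 72.0% and 33.5% in SOA and 16.1%, 13.2% and 34.2% in IV. At Nudt4, a diphosphoinositol polyphosphate phosphohydrolase, the region chr10:95562777-95565057 was at 22.1%, 45%, 41.7% and 2.5% in SOA and 0.9%, 0% and 1.2% in IV, so that SOA1 to SOA3 were high and SOA4 lay near the IV libraries. At Ror2, a Wnt receptor, and at Vinac1 the differences were 22.0 and 20.2 points.

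**Figure D5:**
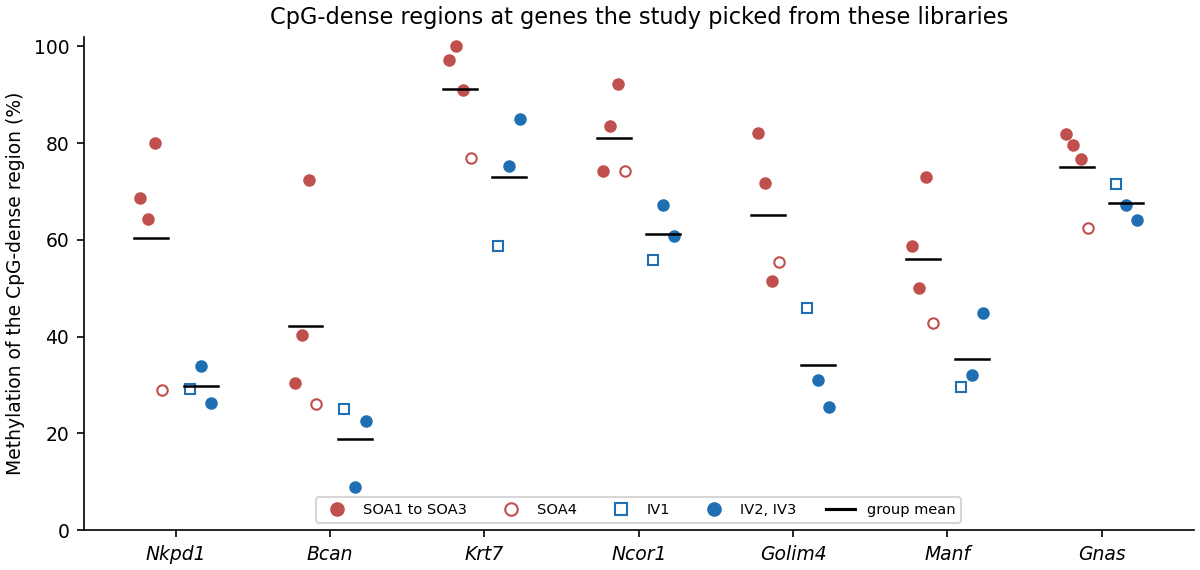
Methylation (%) of the 7 CpG-dense regions at genes picked by the study that were intermediate in IFC and SO and had 20 or more calls in every library; markers are libraries and black lines group means. SOA4 (open circle) lies inside the IV range at Nkpd1, Krt7 and Manf, above all IV libraries at Ncor1, Golim4 and, narrowly, Bcan, and below all of them at Gnas.

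Maternal imprints, whose methylation in the egg sets expression from 1 parental allele in the embryo, were present in both groups. Of 18 listed genes, 17 had a CpG-dense region above 80% in the pooled IFC and SO calls, 18 regions in all, and 11 had 5 or more calls in every library. Over these 11 regions SOA averaged 96.80 ± 0.68% (SD, n = 4) and IV 93.52 ± 3.55% (SD, n = 3), a difference of 3.28 points with an exact permutation p = 0.0571, and 1.30 points without IV1 (exact permutation p = 0.2). The IV1 deficit was seen at Nnat, a neuronal proteolipid gene, with 82.1% of 95 calls against 93.8% to 97.3% in IV2 and IV3. At the Gnas region chr2:174297148-174301354, of the gene of a G protein alpha subunit, IV1 was at 84.6% of 182 calls against 93.2% to 97.9% in the other 6 libraries. At Peg3, a zinc finger gene, the SOA1 value of 81.2% came from 16 calls, and the other SOA libraries were at 95.2% to 97.4%. At Igf2r, the receptor that clears IGF2, IV1 was at 98.4% of 122 calls and the other libraries at 93.5% to 100%. Of 15 tested bodies of imprinted genes on the list 0 were called by edgeR after adjustment, with a median difference of 2.24 points (1.09 without IV1) against 1.02 (1.54 without IV1) over all gene bodies. Kcnq1 was the 1 gene with groups apart and higher in SOA, beside 4.61% of all gene bodies.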

How the data were processed

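The authors made PBAT libraries, trimmed reads with Trim Galore 0.4.4 and cutadapt 1.9.1, mapped them to GRCm38 with Bismark 0.19.0 (tools and build per the submitters' processing notes). The deposited tables give for each covered CpG position and strand a percent methylated and, as read counts without normalization, how many calls were methylated and how many were not. Here the counts were summed per autosomal 10-kb bin (10 or more calls in every library), GENCODE M21 gene body, CpG-dense region (both 20 or more) and promoter. Per the study's methods libraries were run on either of a pair of sequencer models, which is not given per library, so a sequencing batch could not be compared with the depth gap between SOA1 to SOA3 and the other libraries. Mapping used the C57BL/6J reference, so that a C-to-T variant of CBA/Ca reads as unmethylated in both groups.

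Bins and CpG-dense regions were tested by a logistic likelihood-ratio test with group as the only term, gene bodies by edgeR 4.0.16 (quasi-likelihood, library effects; limma 3.58.1 as alternative), each Benjamini-Hochberg adjusted over all features at 0.05. Single values per library were tested by exact two-sided permutation tests. The tests were also run on simulated gene bodies with an assumed spread between libraries, and the outcome for edgeR and limma is given above in words. The libraries, lists and rules were chosen with earlier results of these data known. Named were genes the study gives for this comparison, 8 gene bodies per direction (groups apart, 50 or more calls, at least 10 points kept without IV1), 6 bins per direction (called with 20 points with and without IV1, groups apart, 20 or more calls), and each list's extremes. Other genes with groups apart, a low unadjusted p or an extreme without IV1, and regions past 20 points, were named after their values were seen. Alternatives were other tests, limits, bins, positions, depth and left-out libraries. Nothing in the labels says that libraries of 1 group came from separate animals, so p-values measure the spread between these pools. Python 3.11.15 and R 4.3.3 were used. PBAT calls are not independent molecules, and intervals cover counting error only.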

Additional observations from a re-analysis of the deposited data

Results flagged for a closer look

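In 3 of 59 sets of 4 SOA values tested, 1 SOA library lay far from the other 3 relative to the range (Dixon's test at the 95% level), and chance flags about 1 in 20 sets. The gene body of Polr2f was at 42.6% in SOA3 against 57.1% to 59.8% in the other SOA libraries. Tigar was at 68.1% in SOA4 against 58.0% to 59.1%, close to the 68.9% of IV1. Wdr86 was at 39.3% in SOA2 against 54.1% to 56.5%. The IV group has 3 libraries and was not tested in this way.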

How the results depend on the processing

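The number of bins called by the logistic test depended on library and test. The quasi-binomial F test called 1 bin and edgeR and limma 0, with 0 by 20 points in either direction in each. With IV1 left out, an alternative added after seeing the data, these tests called 26, 0 and 0 bins, and again 0 by 20 points. With each library left out in turn the logistic count ran from 2022 (without IV1) to 20511 (without IV3), with 4662 without SOA4 and 16850 without IV2. Bins lower by 20 points then numbered 144 to 569 and bins higher 299 to 832. The 832 higher bins were without SOA4. With equal depth by thinning the logistic test called 1403 of 126813 bins. A limit of 30 points left 14 lower and 28 higher bins, and 20 or more calls in every library left 46 and 161 over 74875 bins. The difference over all bins was -1.36 to 0.65 points with a library left out and changed sign only without IV1. That of intermediate bins was -0.21 to 1.71 points, negative without SOA1, IV2 or IV3. It was also -0.12 with class limits of 10% and 90%, and -1.94 with SOA4 alone against the IV libraries. That of high bins reached an exact permutation p = 0.0286 at 1.46 points over reference CpG positions only. The logistic test called 4515 gene bodies where edgeR and limma called 0. The CpG-dense count was 0 by the quasi-binomial test, 1 without IV1, and 78 of 1446 with regions of 30 CpGs and spacing of at most 15 bp, where fewer were tested. Deviations of same-numbered libraries from their group means correlated at 0.011, -0.014 and 0.022. SOA1 correlated best with IV1 and SOA3 with IV3, while SOA2 correlated best with IV1, at 0.019. Correlations this small do not settle whether replicate numbers pair the libraries. With the replicate number as a block the logistic test called 5349 bins and 157 CpG-dense regions, and edgeR 0 gene bodies. The cause of these changes was not tested. Other values turned direction too. With SOA4 alone against the IV libraries, promoters were at -0.96 points and bins in gene bodies at -1.32. Without IV1, low CpG-dense regions went from -0.08 to 0.21 points. The remaining alternatives for the means over bin classes, promoters and maternal imprint regions kept direction and side of the threshold. With each library left out, the sign held in 36 of the 41 gene bodies named by the rule and in 12 of 12 named bins. It did not hold in the gene bodies of Bcan, Sdk1, Cdh13, Dazl and Etl4. All named bins, and the gene bodies named for the largest losses and gains, were chosen with groups apart. Where groups are apart, leaving out a library cannot turn the sign. The count for bins and part of that for gene bodies therefore follow from the choice and are no check.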
